A study of Mus musculus with 20 samples.

Results

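The genes described here code for the receptors through which hematopoietic growth factors act on myeloid cells. They were taken by symbol from the gene count table and are Csf2ra, Csf2rb, Csf2rb2, Il3ra, Csf1r, Csf3r, Flt3 and Kit, which makes 8 of the 24421 genes listed. All 8 passed the filter on low counts, as did 12465 genes of the whole table. Bone marrow-derived dendritic cells (BMDCs) of 5 C57BL/6 mice (A to E) had been grown for 8 days with GM-CSF at 40 ng/mL. The cells of each mouse were then divided over 4 groups, which were given ovalbumin alone (Ova) or its immune complexes with antibody (IC) during 4 h, together with iBET or its solvent DMSO. This gave 20 RNA-seq libraries.

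The DMSO Ova group received DMSO (5% in the labels) and Ova, the DMSO IC group the same DMSO and IC. The iBET Ova and iBET IC groups received I-BET151 (iBET), an inhibitor of the BET bromodomain proteins, at 3.3 μM with Ova or with IC. All 4 groups share the GM-CSF culture, so no group was without a ligand of the receptors. The labels give no DMSO content for the iBET groups, and the match of solvent between iBET and DMSO cannot be told from them. The labels place iBET and stimulus at the same time, whereas the methods place iBET before the stimulus. The labels say that cells were sorted into the lysis buffer and name no gate, whereas the methods describe lysis of the cultures and no sort, so which cells of a culture entered a library cannot be told from these sources. Replicates are different mice, and the 4 libraries of a mouse come from 1 animal.

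Growth factor receptors of myeloid cells fall into a pair of structural families. The receptors of GM-CSF and IL-3 join a ligand-specific alpha chain (Csf2ra for GM-CSF, Il3ra for IL-3) to a signalling beta chain, which is Csf2rb for GM-CSF, IL-3 and IL-5 and, in mice only, the IL-3-specific Csf2rb2. These chains lack a kinase of their own and signal through JAK2 and STAT5, as does the single-chain G-CSF receptor Csf3r through JAK kinases and STAT3. Csf1r, Flt3 and Kit are receptor tyrosine kinases, which bind CSF1 and IL-34, FLT3 ligand, and stem cell factor. Csf1r marks monocytes and macrophages, Flt3 marks dendritic cell precursors and conventional dendritic cells, and Kit marks progenitors and mast cells.

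The beta chain genes are shown at the start of their coding sequences, since their likeness bears on every count given for them. Csf2rb lies on chromosome 15 at 78325752 to 78353847 of GRCm38 (plus strand), and Csf2rb2 beside it at 78282507 to 78305721 (minus strand). The first 120 coding bases are printed from the GENCODE transcripts, and capitals mark the 4 bases at which they differ.
Csf2rb: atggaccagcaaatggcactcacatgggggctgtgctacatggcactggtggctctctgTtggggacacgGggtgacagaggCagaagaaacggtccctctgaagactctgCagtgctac
Csf2rb2: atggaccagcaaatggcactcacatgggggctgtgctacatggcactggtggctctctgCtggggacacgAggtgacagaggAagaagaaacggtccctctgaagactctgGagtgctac

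Over 2628 aligned coding bases, the pair was 95.2% identical. Of all stretches of 50 bases in the longest Csf2rb2 transcript, 19% also occurred in that of Csf2rb, and of stretches of 150 bases 3.59% did. How reads that fit both genes were counted is not given in the sources used here, so the division of counts between Csf2rb and Csf2rb2 is uncertain. Csf2rb shared no stretch of 50 bases with Csf2ra, nor did Il3ra with Csf2ra.

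The promoters of Flt3 and Csf3r, which fell with iBET, and of Csf2rb2, whose level spread widely between libraries of a group, are printed from RefSeq (GRCm38.p6), each from 250 bases before the transcription start to 50 after it. Capitals mark matches on either strand to GGAAGT (core of ETS factors and PU.1), TTNCNNAA (C/EBP), TGNGGT (RUNX), TTCNNNGAA (STAT5), TGANTCA (AP-1), CACGTG (E-box), AGATAA (the GATA factors) or TATAAA (the TATA box). They are the windows chr5:147400440-147400739 (minus strand), chr4:126024409-126024708 (plus strand) and chr15:78305672-78305971 (minus strand).
Flt3: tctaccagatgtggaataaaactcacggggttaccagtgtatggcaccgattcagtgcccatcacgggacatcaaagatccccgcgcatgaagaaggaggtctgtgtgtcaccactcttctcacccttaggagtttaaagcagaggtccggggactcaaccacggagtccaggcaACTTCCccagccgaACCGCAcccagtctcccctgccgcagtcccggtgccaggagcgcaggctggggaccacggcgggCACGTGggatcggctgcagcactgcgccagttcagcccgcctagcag
Csf3r: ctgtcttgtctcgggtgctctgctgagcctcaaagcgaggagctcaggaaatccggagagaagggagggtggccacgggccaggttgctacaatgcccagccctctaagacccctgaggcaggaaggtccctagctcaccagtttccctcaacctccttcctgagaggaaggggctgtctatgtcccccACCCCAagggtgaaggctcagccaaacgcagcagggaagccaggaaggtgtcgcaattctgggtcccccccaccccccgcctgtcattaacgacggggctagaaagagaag
Csf2rb2: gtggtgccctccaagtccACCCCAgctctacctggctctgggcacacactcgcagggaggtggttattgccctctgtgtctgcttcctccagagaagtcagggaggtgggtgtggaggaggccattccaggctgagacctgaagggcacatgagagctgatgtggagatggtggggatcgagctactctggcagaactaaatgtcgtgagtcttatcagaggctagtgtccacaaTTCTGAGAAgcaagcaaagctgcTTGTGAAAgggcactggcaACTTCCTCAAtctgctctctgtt

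Flt3 held 1 ETS match at position -75 from the start, 1 RUNX match at -61 and 1 E-box at 3. Csf3r held 1 RUNX match at -61. Csf2rb2 held 1 RUNX match at -232, 1 STAT5 match at -15, C/EBP matches at 8 and 29 and an ETS match at 27 that overlaps the latter. Windows were at hand for 6 of the 8 genes, 7 windows in all since Kit has 2, and none was used for Csf2rb and Csf1r. Among the 7 windows, 3 held the ETS letters, 3 the C/EBP letters, 4 the RUNX letters and 1 the STAT5 letters, against 23.8%, 40.7%, 45.8% and 8.3% of all 32851 promoter windows. A further 1 of the 7 held the E-box (7.15% of all), and none held the AP-1, GATA or TATA letters (7.81%, 11.2% and 13.6%). Neither Kit window matched any of the letters.

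Library totals ranged from 16447500 to 29245200 counts (rounded to 6 digits), and the ribosomal RNA gene Rn45s took 2.69% to 8.61% of them. Levels are given as CPM, the counts of a gene scaled to 1000000 counts of the TMM-normalized library. Some markers of dendritic cells were abundant (Cd74 at 2661 ± 735 CPM and Itgax at 1962 ± 187 CPM in the DMSO Ova group, SD, n = 5). Others were far lower in that group (Zbtb46 24.5 ± 11.1, Clec9a 5.56 ± 2.36, Cd209a 0.281 ± 0.185 and Xcr1 0.0488 ± 0.0298 CPM). The macrophage marker Adgre1 (163 ± 12.5 CPM) and the monocyte marker Fn1 (4799 ± 1527 CPM) were also abundant there. Neither B cell nor T cell markers exceeded 17 counts in any library. The libraries are bulk RNA, so fewer cells of a type and less RNA per cell cannot be told apart.

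Per kilobase of exon, Csf2rb was the most abundant receptor transcript in the DMSO Ova group, at 373 ± 9.29 CPM per kb (SD, n = 5). Csf1r (179 ± 28 CPM per kb), Csf2rb2 (165 ± 53.8 CPM per kb) and Csf2ra (107 ± 13.7 CPM per kb) followed. The range of Csf2rb2 (91.3 to 223 CPM per kb) overlapped those of Csf1r (144 to 211) and Csf2ra (100 to 131), whereas the ranges of Csf1r and Csf2ra did not overlap. Il3ra stood far lower at 8.81 ± 0.774 CPM per kb. Kit (2.52 ± 1.13 CPM per kb) and Csf3r (2.19 ± 0.222 CPM per kb) overlapped, and Flt3 was lowest at 0.491 ± 0.284 CPM per kb. In the iBET Ova group Csf1r stood below Csf2rb, Csf2rb2 and Csf2ra, at 101 ± 13.1 CPM per kb, within the spread of Csf2ra (113 ± 10.6 CPM per kb). These levels use GENCODE exon lengths, and the annotation behind the counts is not given in the sources used here.

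**Figure D1:**
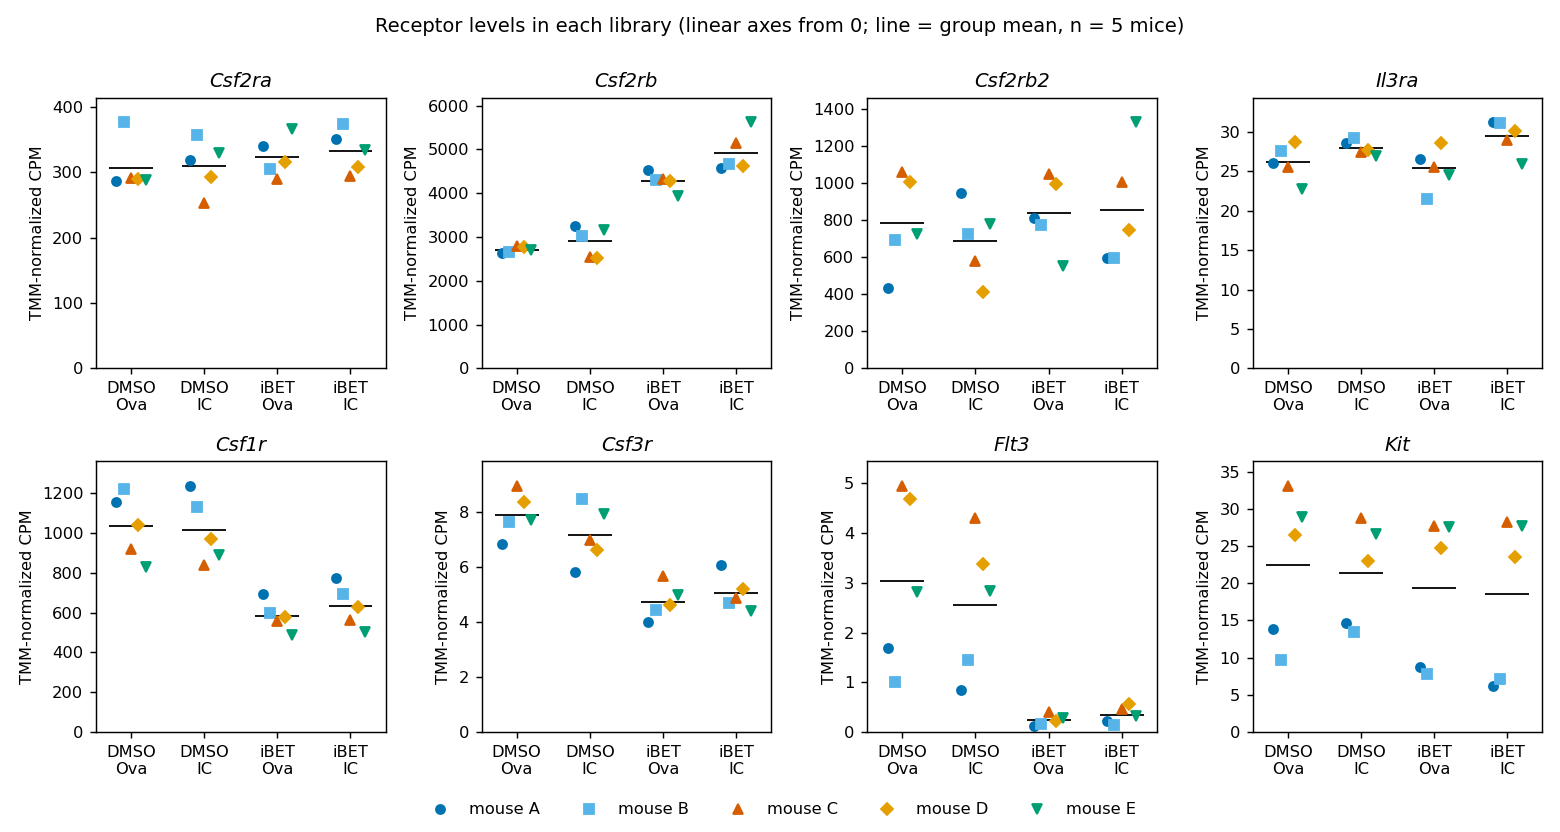
TMM-normalized CPM of the 8 receptor genes in each of the 20 libraries, on linear axes from 0, with 1 symbol and colour per mouse and a line at the mean of the 5 mice of a group. Csf2rb is higher and Csf1r and Flt3 are lower in every iBET library than in any DMSO library with the same stimulus, and Kit separates by mouse, with mice A and B lowest in every group.

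The first comparison asked how iBET changed the receptor transcripts when cells received Ova alone. Of the 8 genes, 4 passed the test (edgeR, adjusted p under 0.05), 1 higher (Csf2rb) and 3 lower (Csf1r, Csf3r and Flt3), against 56.6% of all genes tested (27.7% higher, 28.9% lower). The share of the receptors that passed is thus close to that of all genes. Their median log2 fold change was -0.13, that of all genes 0.00. With IC, the same 4 genes passed in the same directions (56.1% of all genes, 27.1% higher and 29.0% lower), with a median of -0.07 against -0.01. The comparisons with Ova and with IC use different libraries of the same mice.

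Csf2rb, the common beta chain, rose with iBET. With Ova and DMSO it measured 2627, 2666, 2791, 2765 and 2715 CPM in mice A to E, and with Ova and iBET 4535, 4310, 4328, 4289 and 3947 CPM. The groups did not overlap, and the lowest iBET library lay well above the highest DMSO library. The log2 fold change was 0.66 (SE 0.0802, edgeR adjusted p = 8.55e-07), a 1.58-fold rise in 5 of 5 mice. With IC, the DMSO libraries held 3250, 3022, 2547, 2518 and 3170 CPM, and the iBET libraries 4584, 4659, 5138, 4619 and 5621 CPM. Again no iBET library fell within the DMSO range, and the rise was 0.76 on the log2 scale (SE 0.0804, edgeR adjusted p = 1.17e-07, 1.7-fold). Among all genes tested, 89.3% had a lower log2 fold change than Csf2rb with Ova and 91% with IC.

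The alpha chains did not pass the test in either comparison. Csf2ra (chromosome 19, 61223957 to 61228429, minus strand, GRCm38), which gives the GM-CSF receptor its ligand specificity, measured 306 ± 39.3 CPM with DMSO and 323 ± 30.3 CPM with iBET under Ova, and 310 ± 39.2 and 332 ± 32.5 CPM under IC. The log2 differences were 0.08 (95% interval -0.13 to 0.29, edgeR adjusted p = 0.522) and 0.10 (-0.11 to 0.31, adjusted p = 0.405). Without mouse B, the difference with Ova was 0.21 and passed (edgeR adjusted p = 0.0487). In the DMSO Ova group mouse B held 377 CPM of Csf2ra, the other mice 287 to 291 CPM. Il3ra (chromosome 14, 14346275 to 14356011, plus strand), the alpha chain for IL-3, measured 26.1 ± 2.3 CPM with DMSO and 25.4 ± 2.62 CPM with iBET under Ova, and 28 ± 0.891 and 29.5 ± 2.2 CPM under IC. Its log2 differences were -0.04 (95% interval -0.20 to 0.12, edgeR adjusted p = 0.656) and 0.08 (-0.08 to 0.24, adjusted p = 0.408).

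Csf2rb2, the beta chain that serves IL-3 alone, varied more within groups than between them. With Ova it measured 433, 692, 1057, 1007 and 724 CPM in mice A to E with DMSO, and 810, 774, 1048, 992 and 555 CPM with iBET. With IC it measured 945, 727, 578, 412 and 778 CPM with DMSO, and 593, 598, 1003, 744 and 1328 CPM with iBET. All 4 ranges overlapped. The log2 differences of iBET against DMSO were 0.09 with Ova (95% interval -0.47 to 0.66, edgeR adjusted p = 0.78) and 0.31 with IC (-0.25 to 0.87, adjusted p = 0.333), so a change of the size seen in Csf2rb lies within the second interval. With IC, Csf2rb2 was lower with iBET in mice A and B, and higher in mice C, D and E, in whose libraries alone the difference was 0.83 and passed (edgeR adjusted p = 0.0188). The single-mouse differences with IC ran from -0.67 to 0.85. With Ova these mice stood the other way round. The difference was 0.49 in mice A and B alone and -0.06 in mice C, D and E alone, and neither passed (edgeR adjusted p = 0.0704 and 0.873).

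**Figure D2:**
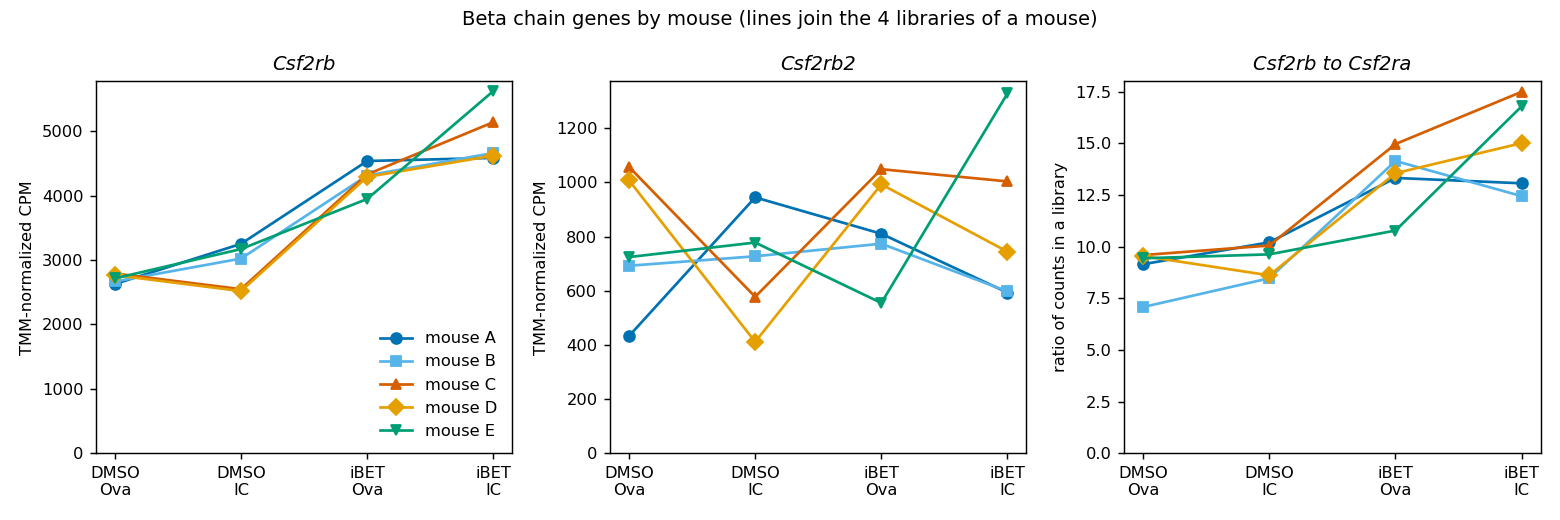
TMM-normalized CPM of Csf2rb and Csf2rb2 and the ratio of Csf2rb to Csf2ra counts in each library, on linear axes from 0, with a line joining the 4 libraries of each mouse. The Csf2rb lines step up together from DMSO to iBET, the Csf2rb2 lines cross, and the ratio is above 10 in every iBET library and between 7.08 and 10.2 in the DMSO libraries.

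Since the beta chain rose and the GM-CSF alpha chain did not pass the test, their counts were set against each other within each library, which needs no scaling between libraries. These ratios were chosen after the values were seen. Csf2rb held a median of 9.44 counts per Csf2ra count (7.08 to 9.59) in the DMSO Ova group and 13.6 (10.8 to 15.0) in the iBET Ova group. With IC the medians were 9.63 (8.47 to 10.2) with DMSO and 15.0 (12.4 to 17.5) with iBET. In both comparisons the groups did not overlap, and p was the smallest that an exact two-sided permutation test of 5 against 5 libraries can give (p = 0.00794, 0.0238 after Benjamini-Hochberg adjustment over 12 ratio tests). This p restates the rise of Csf2rb given above, where the groups did not overlap either, and is not separate evidence. The ratio of Csf2rb to Csf2rb2 counts had medians of 3.75 (DMSO) and 5.57 (iBET) under Ova, and of 4.16 and 6.21 under IC, and neither difference passed (exact permutation p = 0.0714 and 0.0635, adjusted 0.143 for both). This ratio was higher with iBET in 4 of 5 mice under Ova and in 5 of 5 mice under IC, and the permutation of libraries does not use the pairing by mouse. That of Csf2rb to Csf1r had medians of 2.66 (DMSO) and 7.43 (iBET) under Ova, and of 2.67 and 7.35 under IC, which follows from the opposite changes of these genes given singly.

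Csf1r, the macrophage colony-stimulating factor receptor, fell with iBET. With Ova, mice A to E held 1156, 1220, 917, 1038 and 830 CPM with DMSO and 694, 600, 556, 577 and 485 CPM with iBET. With IC they held 1235, 1131, 841, 968 and 888 CPM with DMSO and 772, 691, 561, 628 and 502 CPM with iBET. Neither pair of groups overlapped, and every mouse was lower with iBET in both. The log2 fold change was -0.83 with Ova (SE 0.135, edgeR adjusted p = 3.23e-05) and -0.68 with IC (SE 0.135, adjusted p = 0.000243), falls of 1.77-fold and 1.6-fold. Csf1r lies on chromosome 18, and 873 of its exon bases lie within the span of the gene Hmgxb3 on the opposite strand. Whether counting used strand is not given in the sources used here, so reads in that overlap cannot be assigned. Beside this fall, 5 of 10 macrophage markers were lower and 1 higher with Ova (28.9% and 27.7% of all genes), and 3 were lower and 1 higher with IC (29.0% and 27.1%). With the mouse as a block, 6 were lower and 1 higher with IC, where 68.0% of all genes passed in either direction. Their summed level ranged from 702 to 1148 CPM (DMSO Ova), 824 to 1129 (DMSO IC), 622 to 897 (iBET Ova) and 671 to 1084 CPM (iBET IC), with none at 0 counts, and their part in the fall was not tested.

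Csf3r (chromosome 4, 126024550 to 126044440, plus strand), the G-CSF receptor of neutrophils and their precursors, was scarce and fell further. With Ova it measured 6.83, 7.65, 8.95, 8.37 and 7.69 CPM with DMSO and 4.00, 4.45, 5.66, 4.64 and 4.98 CPM with iBET, at 82 to 239 counts a library. These groups did not overlap (log2 fold change -0.74, SE 0.12, edgeR adjusted p = 2.93e-05, lower in 5 of 5 mice). With IC the values were 5.83, 8.49, 7.00, 6.62 and 7.92 CPM with DMSO and 6.07, 4.70, 4.86, 5.20 and 4.39 CPM with iBET. The groups overlapped through mouse A, in which Csf3r was slightly higher with iBET, and the other 4 mice were lower (log2 fold change -0.51, SE 0.119, edgeR adjusted p = 0.00125). In mice A and B alone the difference with IC was -0.40 and did not pass (edgeR adjusted p = 0.157). Of 9 neutrophil markers tested, 1 was higher (Mpo) and 1 lower (Cxcr2) in each comparison, against 56.6% of all genes called with Ova and 56.1% with IC. With the mouse as a block 1 was higher and 2 lower in each, against 68.7% of all genes called with Ova and 68.0% with IC. Mpo held 0 to 2 counts a library in the DMSO Ova group and 0 to 1 in the DMSO IC group. With iBET it held 4 to 14 (Ova) and 11 to 22 (IC). It passed the filter on low counts only through iBET libraries, so its call carries no weight. The neutrophil markers summed to 500 to 894 CPM in the DMSO Ova group and 460 to 808 CPM in the iBET Ova group, and to 509 to 859 and 487 to 950 CPM with IC. Most of this sum is Mmp8, a collagenase of neutrophils (588 ± 187 CPM in the DMSO Ova group), and the part of these markers in the fall of Csf3r was not tested.

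Flt3 (chromosome 5, 147330741 to 147400489, minus strand), the receptor of FLT3 ligand, showed the largest change of the 8 genes. With Ova it measured 1.70, 1.01, 4.94, 4.69 and 2.82 CPM with DMSO and 0.121, 0.163, 0.408, 0.225 and 0.293 CPM with iBET. With IC it measured 0.848, 1.45, 4.29, 3.37 and 2.84 CPM with DMSO and 0.222, 0.151, 0.466, 0.572 and 0.334 CPM with iBET. Neither pair of groups overlapped. The 5 DMSO Ova libraries held 356 counts together and the 5 iBET Ova libraries 25, and with IC the sums were 291 and 37. The log2 fold changes were -3.66 (95% interval -4.79 to -2.52, edgeR adjusted p = 8.48e-06) and -2.91 (-3.98 to -1.83, adjusted p = 6.61e-05), lower in 5 of 5 mice in both. With 3 to 12 counts in each iBET library, the size of the fall is loosely set. The intervals are from the fit without the mouse (SE 0.535 with Ova and 0.508 with IC). With the mouse as a block, the log2 fold changes were -3.62 (SE 0.226) and -2.83 (SE 0.213). Only 0.393% of all genes tested had a lower log2 fold change than Flt3 with Ova, and 0.987% with IC.

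Flt3 is also a marker of conventional dendritic cells. Of the 11 tested genes of that marker list, Flt3 included, 4 were lower and 0 higher with iBET under Ova (28.9% and 27.7% of all genes), and 3 lower and 0 higher under IC (29.0% and 27.1%). With the mouse as a block, 8 were lower and 1 higher under Ova, and 8 lower and 2 higher under IC. In that fit 68.7% (Ova) and 68.0% (IC) of all genes passed in either direction. Ciita, the activator of MHC class II transcription, fell from 43.8 ± 25.9 to 1.36 ± 0.668 CPM with Ova, and Batf3, a transcription factor of cross-presenting dendritic cells, from 18.7 ± 9.04 to 5.57 ± 2.68 CPM (SD, n = 5). The class II genes of the list moved less, from DMSO to iBET with Ova. H2-Aa measured 446 ± 175 and 396 ± 150 CPM, H2-Ab1 289 ± 77.6 and 287 ± 82.9, and H2-Eb1 248 ± 111 and 206 ± 89. Mean levels were higher with iBET for Cd74 (2661 ± 735 and 3169 ± 988 CPM) and Itgax (1962 ± 187 and 2108 ± 349 CPM). The dendritic cell transcription factor Zbtb46 measured 24.5 ± 11.1 and 20 ± 7.02 CPM and did not pass (edgeR adjusted p = 0.49), though it did with the mouse as a block (-0.25 on the log2 scale, adjusted p = 0.00348). Without Flt3, the list summed to 4727 to 7838 CPM in the DMSO Ova group and 4873 to 7951 CPM in the iBET Ova group, and to 5505 to 9303 and 5860 to 10078 CPM with IC. Most of this sum is Cd74 and Itgax, and the part of these markers in the fall of Flt3 was not tested. The antisense gene Gm26597 covers 270 exon bases of Flt3 on the opposite strand, with the same limit as for Csf1r.

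Kit (chromosome 5, 75574916 to 75656722, plus strand), the stem cell factor receptor, differed more between mice than between treatments. With Ova it measured 13.9, 9.72, 33.1, 26.5 and 28.9 CPM in mice A to E with DMSO, and 8.77, 7.86, 27.7, 24.7 and 27.6 CPM with iBET. With IC it measured 14.7, 13.5, 28.8, 22.9 and 26.6 CPM with DMSO, and 6.18, 7.12, 28.2, 23.5 and 27.7 CPM with iBET. Mice A and B were low in all 4 groups, and the ranges of DMSO and iBET overlapped. The log2 difference was -0.22 with Ova (95% interval -1.18 to 0.75, 5 of 5 mice lower, edgeR adjusted p = 0.707), and with IC it was again -0.22 (-1.18 to 0.75, 3 of 5 mice lower, adjusted p = 0.709). With the mouse as a block, the difference with IC was -0.36 (SE 0.146) and passed (edgeR adjusted p = 0.0388), as did 68.0% of all genes in that fit, and with Ova it was -0.26 (adjusted p = 0.119, against 68.7% of all genes that passed). In mice A and B alone Kit fell by 0.52 with Ova (edgeR adjusted p = 0.0423) and by 1.06 with IC (adjusted p = 0.00145) on the log2 scale, and in mice C, D and E alone it did not pass. Whether the effect differed between these mice was not tested. Of the mast cell and basophil markers, Ms4a2, Fcer1a, Mcpt8, Tpsb2 and Cma1 reached at most 8 counts in any library and Mcpt4 was at 0. Gata2, Hdc and Cpa3 had counts in all 20 libraries, with at most 239, 209 and 73 in any. Of 4 such markers tested, Kit included, 0 were higher and 1 lower with iBET under Ova (27.7% and 28.9% of all genes). Under IC 0 were higher and 2 lower (27.1% and 29.0%). Of 4 progenitor markers tested, Kit included, none passed under Ova, and 0 were higher and 1 lower under IC. Without Kit, the 9 mast cell markers summed to 8.00 to 16.3 CPM (DMSO Ova), 11.1 to 19.2 (DMSO IC), 5.48 to 9.42 (iBET Ova) and 7.40 to 13.2 CPM (iBET IC).

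**Figure D3:**
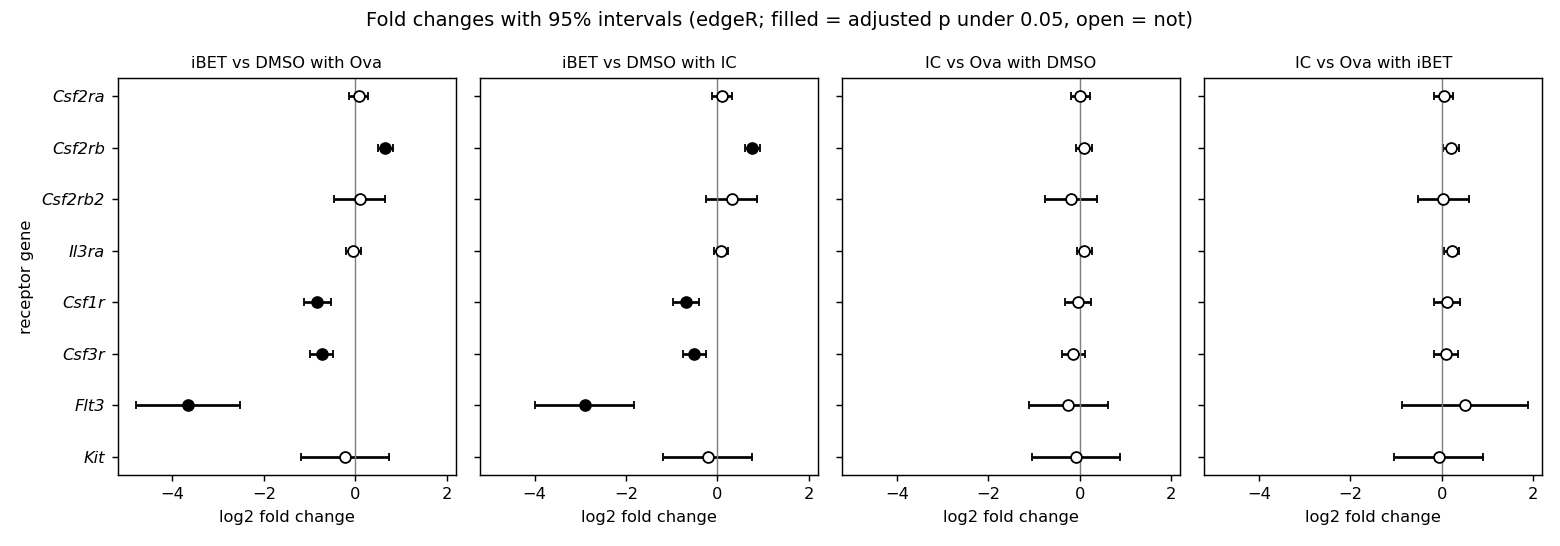
Log2 fold change of each receptor gene with its 95% interval in the 4 pairwise comparisons (edgeR, 5 mice a group), with filled points for an adjusted p under 0.05 and open points otherwise. Csf2rb is filled to the right of 0 and Csf1r, Csf3r and Flt3 to the left in both comparisons of iBET with DMSO, and no point is filled in the comparisons of IC with Ova.

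The second question was whether IC altered the receptors. With DMSO, none of the 8 genes passed in edgeR, where 20.3% of all genes did (9.59% higher, 10.7% lower), and none with the mouse as a block, where 38.1% did. None had an unadjusted p under 0.05, and none passed in DESeq2 or in limma. The differences lay between -0.25 (Flt3, 95% interval -1.12 to 0.62) and 0.10 (Il3ra, -0.06 to 0.26) on the log2 scale. The intervals were narrow for Csf2rb (-0.07 to 0.27), Csf2ra (-0.19 to 0.23) and Csf1r (-0.31 to 0.26), and wide for Csf2rb2 (-0.75 to 0.38) and Kit (-1.03 to 0.89). With the mouse as a block, the SE went from 0.453 to 0.145 for Kit and from 0.265 to 0.262 for Csf2rb2. Csf2rb2 was higher with IC than with Ova in mice A, B and E and lower in mice C and D, with single-mouse log2 differences from -1.29 to 1.13. When libraries were scaled by their totals alone, the median of all genes in this comparison moved from -0.02 to -0.13.

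With iBET, none of the 8 genes passed in edgeR for IC against Ova (11.8% of all genes did, 5.19% higher and 6.63% lower), and 2 had an unadjusted p under 0.05. These were Csf2rb (log2 difference 0.20, 95% interval 0.03 to 0.37, edgeR adjusted p = 0.109) and Il3ra (0.22, 0.06 to 0.38, adjusted p = 0.0694), each higher with IC in 5 of 5 mice. Il3ra held 26.6, 21.5, 25.6, 28.6 and 24.6 CPM with iBET and Ova, and 31.2, 31.1, 28.9, 30.2 and 25.9 CPM with iBET and IC, and the groups overlapped through mouse E. With the mouse as a block both passed (edgeR adjusted p = 0.0477 for Csf2rb and 0.0164 for Il3ra), as did 28.9% of all genes. DESeq2 without the block called Il3ra alone (adjusted p = 0.0432), and limma called neither. Il3ra exons overlap the antisense gene Gm48860 over 835 bases. The other 6 genes lay between -0.07 (Kit) and 0.50 (Flt3) on the log2 scale. Csf1r was higher with IC in 5 of 5 mice, at 0.12 (95% interval -0.17 to 0.40).

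The effect of iBET with IC was then compared with its effect with Ova. No receptor passed this interaction in edgeR (0.0401% of all genes did, 0.0241% higher and 0.0160% lower), nor with the mouse as a block (0.818% of all genes). None had an unadjusted p under 0.05, and none passed in DESeq2 or limma. The difference of effects was 0.75 for Flt3 (95% interval -0.88 to 2.38), 0.23 for Csf3r (-0.13 to 0.59), 0.14 for Csf1r (-0.26 to 0.55) and 0.10 for Csf2rb (-0.13 to 0.34) on the log2 scale. The upper bounds for Csf2rb and Csf1r compare with effects of 0.66 and -0.83 with Ova, so differences smaller than the effects themselves could have gone unseen. These bounds are from the fit without the mouse (SE 0.113 for Csf2rb and 0.19 for Csf1r). With the mouse as a block, the differences were 0.11 (SE 0.103) and 0.14 (SE 0.0721), so the bound for Csf1r is wide in part because the pairing is not used.

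Within groups, the receptors differed in how far a mouse kept its level over its 4 libraries. Differences between mice made up 91.9% of the variance within groups for Csf1r, 91.8% for Kit and 82.6% for Flt3. The share was 59.4% for Csf2ra and 44.5% for Il3ra, and only 16.5% for Csf3r, 14.7% for Csf2rb and 13.4% for Csf2rb2. Some share arises even where mice do not differ, since each mouse mean rests on 4 libraries. The low shares therefore do not show a difference between mice. Csf2rb2 thus had a wide spread that did not follow the mouse, and Kit a wide spread that did. Mice A and B, which earlier results of these data had placed apart from mice C, D and E, held more Csf1r and less Kit and Flt3 in each of the 4 groups, without overlap. For Kit with DMSO and Ova, mice A and B held 9.72 to 13.9 CPM and mice C, D and E 26.5 to 33.1 CPM.

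**Figure D4:**
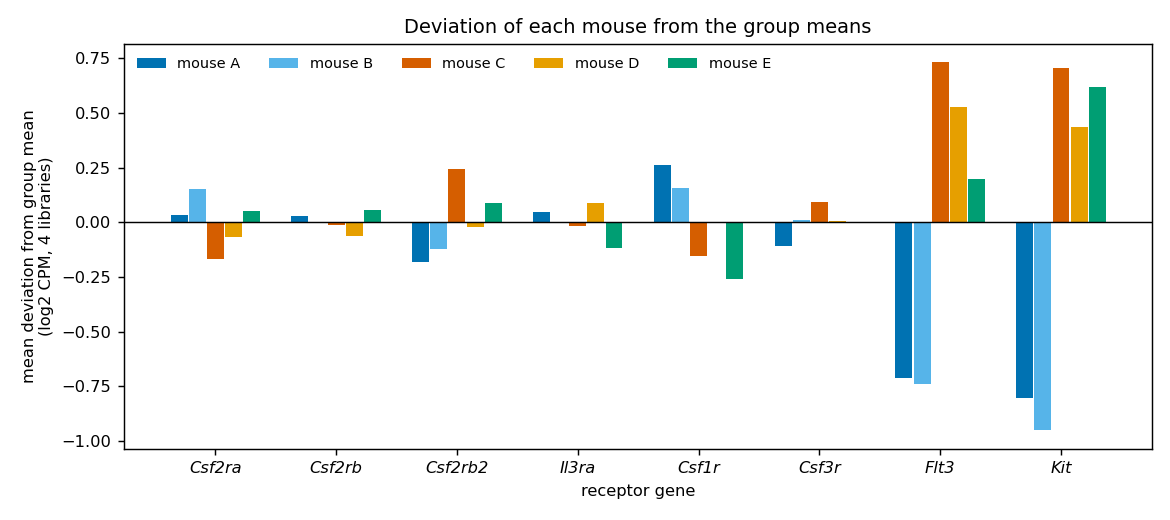
Mean deviation of each mouse from the group means (log2 CPM, over its 4 libraries) for each receptor gene, as bars from 0. Bars of mice A and B reach -0.81 and -0.95 for Kit and -0.71 and -0.74 for Flt3 and point up for Csf1r, while those for Csf2rb stay within 0.0630 of 0.

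Marker levels moved with these mice as well. The macrophage markers summed to 1076 to 1148 CPM in mice A and B and to 702 to 768 CPM in mice C, D and E in the DMSO Ova group, and their ranges did not overlap in the other 3 groups either. The conventional dendritic cell markers, Flt3 left out, summed to 4727 to 5063 CPM in mice A and B and to 6499 to 7838 CPM in mice C, D and E in that group, again apart in all 4 groups. Most of this sum is Cd74 and Itgax (2661 ± 735 and 1962 ± 187 CPM in the DMSO Ova group). It does not give the direction of scarcer markers of the list such as Clec9a (3.86 to 9.31 CPM in that group). The neutrophil markers summed higher in mice A and B (792 to 894 against 500 to 555 CPM with DMSO and Ova) and the eosinophil markers lower (49.4 to 55.9 against 106 to 124 CPM). Most of the neutrophil sum is Mmp8 (588 ± 187 CPM in that group). The sum therefore does not give the direction of scarcer neutrophil markers such as Ngp (0.178 to 2.82 CPM in that group). Rn45s took 2.69% to 5.52% of counts in the libraries of mice A and B and 4.72% to 8.61% in those of mice C, D and E. The part of these values in the receptor levels was not tested.

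The genes most like each receptor were found by Pearson correlation of log2 CPM over the 20 libraries, among 9781 other genes with a mean of at least 100 counts (9782 for Flt3, whose own mean is lower). These are descriptions over libraries that share mice and treatments. The closest were Rcbtb2 for Csf1r (r = 0.98), Nt5dc3 for Csf2rb (0.98), AW112010 for Flt3 (0.98), Mycl for Kit (0.97), Nup214 for Csf2rb2 (0.95), Lilra6 for Csf3r (0.92), Cfp for Il3ra (0.88) and Cyp4f13 for Csf2ra (0.83). In deviations from the group means, Kit was closest to Cd200 (r = 0.99), Cd83 (0.98) and Fscn1 (0.98). Csf2rb2 was closest to Iqsec2 (0.98), Atn1 (0.98) and Ptpn23 (0.97), Csf1r to Hpse (0.96), Ifnar2 (0.96) and Itgb5 (0.95), and Flt3 to Eno3 (0.95). Csf3r had no close partner on this measure, the highest r being 0.67 (Vps36). Csf2rb and Csf2rb2 deviated together (r = 0.80 over the 20 libraries), and they share sequence, as printed above.

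The ligands of the receptors were mostly silent in these cells. Of 8 ligand genes, Il3 had no count in any library, Il34, Csf2, Csf3 and Il5 reached at most 4 counts, and 3 could be tested. Csf1, the ligand of Csf1r, fell with iBET, as its receptor did, from 101 ± 10.6 to 45.3 ± 6.97 CPM under Ova (-1.16 on the log2 scale, edgeR adjusted p = 4.01e-08) and from 121 ± 12.7 to 48.9 ± 6.9 CPM with IC (-1.31, adjusted p = 7.65e-09). Flt3l, the ligand of Flt3, fell from 4.89 ± 0.932 to 2.41 ± 0.368 CPM with Ova (-1.01, edgeR adjusted p = 1.19e-05) and from 3.24 ± 0.556 to 2.4 ± 0.243 CPM with IC (-0.44, adjusted p = 0.0212). It was also lower with IC than with Ova under DMSO (-0.59, edgeR adjusted p = 0.00875). Kitl, the ligand of Kit, measured 2.18 ± 0.37 and 2.96 ± 0.889 CPM with Ova and did not pass (0.43, edgeR adjusted p = 0.0854) except with the mouse as a block (0.41, adjusted p = 0.0193), and rose with IC from 1.75 ± 0.422 to 2.66 ± 0.518 CPM (0.60, adjusted p = 0.022). The related chains Il5ra, Epor, Pdgfra and Pdgfrb reached at most 15 counts in a library and none was tested.

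Below the receptors, 18 proximal signalling genes were tested. With iBET and Ova 4 rose and 8 fell, against 56.6% of all genes called (median log2 fold change -0.26, all genes 0.00), and with IC 5 rose and 9 fell, against 56.1% (median -0.31). Fes, a tyrosine kinase bound by the beta chain, fell from 143 ± 7.77 to 70.1 ± 6.15 CPM under Ova (-1.03 on the log2 scale, edgeR adjusted p = 9.64e-11). Jak2, the kinase on which the beta chain depends, fell from 621 ± 269 to 307 ± 83.3 CPM (-1.02, edgeR adjusted p = 0.0127), with a wide spread between mice. The adaptor Gab2 fell by 0.75 on the log2 scale. For IC against Ova with DMSO, 3 rose and 3 fell, where 20.3% of all genes passed. Stat5a rose from 98.2 ± 24.9 to 152 ± 44.7 CPM, Stat5b from 104 ± 8.86 to 149 ± 24.6 CPM and the adaptor Grb2 from 126 ± 18.7 to 192 ± 17 CPM, while Fes fell from 143 ± 7.77 to 94.4 ± 4.21 CPM (edgeR adjusted p = 0.0329, 0.00238, 0.00113 and 3.25e-06). The beta chains themselves did not pass in that comparison.

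Of 15 inhibitors and turnover genes, 4 rose and 5 fell with iBET under Ova, against 56.6% of all genes called (median log2 fold change 0.15), and as many under IC, against 56.1% (median 0.04). With the mouse as a block, 7 were higher and 6 lower under Ova, where 68.7% of all genes passed in either direction. Dok2, an adaptor that dampens kinase signalling, fell from 108 ± 15 to 10.8 ± 0.901 CPM under Ova (-3.32 on the log2 scale, edgeR adjusted p = 1.55e-14). The phosphatase Ptpn6, which dampens signals of Csf2rb and Kit, fell from 147 ± 8.56 to 62 ± 8.57 CPM (-1.25, edgeR adjusted p = 2.95e-10). Socs3, the inhibitor that acts on Csf3r, rose from 33.9 ± 16.7 to 87.2 ± 40.1 CPM (1.36, edgeR adjusted p = 0.00544), and the adaptor Sh2b2 from 6.99 ± 0.587 to 17.2 ± 2.32 CPM (1.30, adjusted p = 2.84e-08). For IC against Ova with DMSO, 3 rose and 2 fell, where 20.3% of all genes passed. Adam17, a sheddase of Csf1r, rose by 0.42 and its partner Rhbdf2 by 0.43 on the log2 scale (edgeR adjusted p = 0.0136 and 0.00448), Sh2b2 rose by 0.55, and Dok2 had a log2 fold change of -0.93.

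Of 16 target genes of STAT5 and growth factors, 3 rose and 6 fell with iBET under Ova, against 56.6% of all genes called (median log2 fold change -0.11), and 4 rose and 7 fell under IC, against 56.1% (median -0.27). Cish and Socs2 stand both here and among the inhibitors. The kinase gene Pim2 rose from 1.63 ± 0.343 to 8.01 ± 1.4 CPM (log2 fold change 2.30) and the transcriptional repressor Id1 from 3.46 ± 1.57 to 27.8 ± 11 CPM (3.00) with Ova. Cd274, which codes for PD-L1, fell from 276 ± 28.1 to 71.8 ± 15.5 CPM (-1.95), and Bcl6 from 13.3 ± 4.03 to 4.13 ± 1.76 CPM (-1.69). With IC against Ova under DMSO, 4 were higher and 0 lower, where 20.3% of all genes passed, and with the mouse as a block 7 were higher and 3 lower, where 38.1% did. The 4 without the block were the survival gene Bcl2l1 (49 ± 12.3 to 90.3 ± 15.4 CPM), the chemokine Ccl17 (491 ± 121 to 815 ± 211 CPM), Id2 (250 ± 48.9 to 394 ± 71.6 CPM) and Cd274 (276 ± 28.1 to 427 ± 59.2 CPM).

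The transcription factors listed for these receptor genes fell or did not pass with iBET. Of 16 tested of 19 listed, none rose and 11 fell with iBET under Ova, against 27.7% of all genes higher and 28.9% lower (median log2 fold change -0.86, all genes 0.00), and none rose and 10 fell under IC, against 27.1% and 29.0% (median -0.76, all genes -0.01). With the mouse as a block, 0 were higher and 14 lower in both, where 68.7% (Ova) and 68.0% (IC) of all genes passed in either direction. Spi1, which codes for PU.1, fell from 193 ± 11.1 to 32.3 ± 4.1 CPM with Ova (-2.57, edgeR adjusted p = 2.66e-14). Runx1 fell from 151 ± 12.7 to 59.2 ± 6.51 CPM (-1.35), Cebpe, a granulocyte factor, from 5.95 ± 0.921 to 1.22 ± 0.432 CPM (-2.28), and Gata2, a progenitor and mast cell factor, from 6.96 ± 2.97 to 2.97 ± 0.961 CPM (-1.22). Over the same libraries Csf1r, Csf3r and Flt3 fell, Csf2ra and Il3ra did not pass the test and Csf2rb rose. The part of these factors in the receptor changes was not tested. For IC against Ova with DMSO, Cebpb rose from 213 ± 40.4 to 447 ± 49.5 CPM and Klf4 fell from 146 ± 11.1 to 97.8 ± 15.9 CPM (edgeR adjusted p = 6.29e-05 and 0.00305), and the other 14 did not pass (20.3% of all genes did). With the mouse as a block 4 were higher and 1 lower, where 38.1% of all genes passed.

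**Figure D5:**
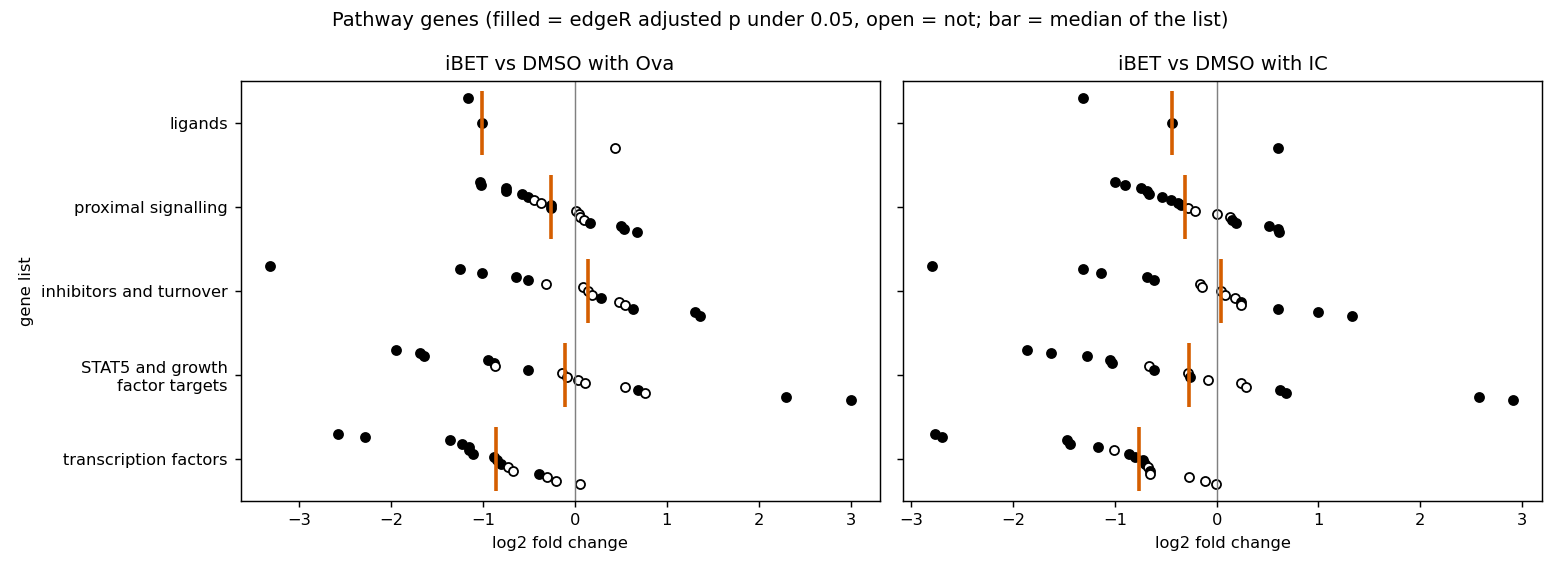
Log2 fold change of iBET against DMSO, with Ova (left) and with IC (right), for each tested gene of the 5 pathway lists, with filled points for an edgeR adjusted p under 0.05, open points otherwise, and a bar at the median of each list. No transcription factor is filled to the right of 0 in either panel, whereas the lists of signalling genes, inhibitors and targets hold filled points on both sides.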

How the data were processed

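RNA-seq of BMDCs was analysed for 20 libraries (4 groups, 5 mice). The authors aligned the reads to mm10 with HISAT2 after Trim Galore, counted them with featureCounts and deposited raw counts per gene. The authors also deposited a table of signal values, which were checked to be the counts divided by DESeq2 size factors. All value columns were mapped to samples (0 unused).

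After filterByExpr and TMM normalization, edgeR 4.0.16 (R 4.3.3) was run with its quasi-likelihood test in a single fit of the 20 libraries with the 4 groups as the only factor. P values were Benjamini-Hochberg adjusted over the 12465 genes tested, with a threshold of 0.05, and receptor genes were read from that fit. Intervals are 95% intervals from the SE. Log2 CPM used a prior count of 2. Ratio tests were exact two-sided permutation tests over 252 arrangements.

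The receptor genes and the gene lists were chosen with earlier results of these data known. All 8 receptors are named. From each list, at most 4 genes are named for iBET with Ova and at most 4 for IC with DMSO. These are the genes with the largest change past the threshold. Genes named otherwise (Kitl, Zbtb46, Mmp8, Ngp, Cpa3, H2-Aa, H2-Ab1, H2-Eb1 and the abundance markers) were chosen after their values were seen. A few listed genes are not reported singly here.

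Alternatives were the mouse as a replicate block, DESeq2 1.42.0 with and without it, DESeq2 size factors, library size only, 3 surrogate variables (sva 3.50.0), no filter, limma 3.58.1 on log2 of the deposited signal values plus 1, each mouse left out, and mice A and B or C, D and E only. Replicate numbers pair the samples, since equal numbers are libraries of 1 mouse in the labels. Libraries of a mouse deviated together from their group means (mean correlation across genes 0.524 over 30 pairs, lowest 0.307, against -0.127 over 120 pairs of different mice). Replicates differed by more than counting error in 40 of 40 pairs (chi-square per degree of freedom at least 12.5). The median library held 21764700 counts. The tests were tested on simulated data. Gene positions are from GENCODE (GRCm38).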

Additional observations from a re-analysis of the deposited data

Results flagged for a closer look

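Csf2ra in the DMSO Ova group held 377 CPM in mouse B, far from the other 4 mice, which lay between 287 and 291 CPM. The gap took 0.957 of the range of the group, above the critical value of 0.71 for 5 samples, and about 1 in 20 such groups is marked by chance. The part of this library in the comparison of iBET with DMSO is given by the fit without mouse B in the report.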

How the results depend on the processing

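Over 600 alternative values for single receptors, 586 kept the sign of any called value and their side of the threshold, 13 passed where the main test did not, 1 no longer passed, and none of the called values changed sign. Csf2rb, Csf1r and Flt3 passed for iBET in all 15 alternatives with Ova and with IC, as did Csf3r with Ova. For IC against Ova with iBET, the number of receptors called went from 0 to 2 with surrogate variables, 2 with the replicate block, 1 with DESeq2 and 2 with DESeq2 and the block. Without a mouse, the receptors called for iBET with Ova numbered 4 to 5. The replicate block changed no other call of a receptor than those given for Kit, Csf2rb and Il3ra.

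Over all genes, the calls for IC against Ova with DMSO (2531) became 4755 with the replicate block, 4611 with DESeq2 and the block, 500 in mice A and B, 1180 without mouse C and 1418 without mouse D. With iBET (1474) they became 3601, 3594 and 296 in the first 3 of these, 2777 with surrogate variables, 2343 with library size only and 643 to 917 without mouse B, C or D. The 5 interaction calls became 102 with the block, 184 with DESeq2 and the block, 25 with DESeq2, 34 with surrogate variables, 13 in mice C, D and E and 0 to 2 without a mouse or in mice A and B. The causes were not tested. Lengths of the longest transcript in place of all exons left the order of the 8 receptors the same in each group, with Csf2rb at 554 CPM per kb and Flt3 at 0.768 CPM per kb in the DMSO Ova group. Depth limits Flt3 with iBET, at 3 to 12 counts a library.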
